A study of Mus musculus with 2 samples.

Results

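CD4 T cells with a low interferon signature were described in lymph node cells of heart-graft recipients. They were selected on measured counts: at least 1 UMI (a counted RNA molecule) of Cd3d, Cd3e or Cd3g and at least 1 of Cd4, none of Cd8a, Cd8b1, Cd79a or Foxp3, and at most 1 UMI in all of the follicular helper genes Cxcr5, Pdcd1, Tox2 and Il21. They also had at most 1 UMI in all of 5 interferon-stimulated genes, Ifit1, Ifit3, Isg15, Irf7 and Usp18. These cells, called members here, were 779 of 10063 cells with 200 genes or more and no more than 10% of their UMIs from mitochondrial genes: 79 of 2106 in the allogeneic library and 700 of 7957 in the syngeneic library. The values of these rule genes chose the cells and are given as description only.

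The study profiled immune cells of mouse lymph nodes by droplet single-cell RNA sequencing after cardiac transplantation, with mice of 6 to 8 weeks in both groups. In the allogeneic group a C57BL/6 heart was placed in a Balb/c recipient, and in the syngeneic group donor and recipient were both Balb/c. Each group had 1 library, and the number of mice behind it, the node sampled and the time after grafting are not given in these sources. No difference below therefore has a replicate check or a test, and all intervals cover counting error only.

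CD4 T cells recognise peptides on MHC class II, and the naive ones recirculate between blood and lymph nodes until they meet their antigen. Naive cells keep the transcription factors Lef1, Tcf7 and Klf2, the homing receptor Ccr7 and the interleukin 7 receptor, while memory and effector cells take on genes such as Cd44, S100a4 and Lgals1. Type I interferon, made early in infection and inflammation, signals through STAT2 and IRF9 to a promoter element of repeated GAAA blocks and turns on genes such as Ifit1, Isg15 and the Slfn family, so a low level of these genes marks cells with little recent exposure to it.

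Promoters were read because the interferon genes outside the rule could be compared between libraries. The motif GAAANNGAAA was sought on both strands in RefSeq promoter windows of 300 bases, 250 before and 50 after each start site, on build GRCm38.p6. It occurred in 3.44% of 32851 windows and at 3.87% of 3954 genes measured in the members, and in 9 of the 24 measured type I interferon genes that had a window. Of the 7 with a window that were at least 2-fold higher in allogeneic members, 3 carried it, and they are shown with the match in capitals, each read 5′ to 3′ on its own gene's strand. Stat2, a transcription factor of the interferon response, lies on the plus strand at chr10:128270248-128270547. Slfn5 lies on the plus strand at chr11:82951852-82952151 and Slfn8, of the same Schlafen family of interferon-induced growth regulators, on the minus strand at chr11:83020761-83021060.
Stat2: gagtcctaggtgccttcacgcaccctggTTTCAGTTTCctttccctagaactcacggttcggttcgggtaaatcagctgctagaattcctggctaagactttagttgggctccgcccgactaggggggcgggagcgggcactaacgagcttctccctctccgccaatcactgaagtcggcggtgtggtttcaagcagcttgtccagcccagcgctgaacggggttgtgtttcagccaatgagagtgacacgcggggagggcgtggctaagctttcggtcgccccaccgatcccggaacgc
Slfn5: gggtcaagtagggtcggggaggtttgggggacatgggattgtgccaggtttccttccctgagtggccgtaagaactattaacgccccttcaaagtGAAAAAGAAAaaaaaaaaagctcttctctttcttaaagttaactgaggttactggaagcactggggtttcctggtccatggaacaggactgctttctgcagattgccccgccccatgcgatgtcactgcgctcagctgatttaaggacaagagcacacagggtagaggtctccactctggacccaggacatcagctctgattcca
Slfn8: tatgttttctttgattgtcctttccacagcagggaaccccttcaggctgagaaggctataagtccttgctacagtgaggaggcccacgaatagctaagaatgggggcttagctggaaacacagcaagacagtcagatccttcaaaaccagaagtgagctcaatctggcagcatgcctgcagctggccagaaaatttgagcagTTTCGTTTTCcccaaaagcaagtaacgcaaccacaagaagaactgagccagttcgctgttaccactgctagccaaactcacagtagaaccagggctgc
In Stat2 and Slfn8 the match reads on the opposite strand, as TTTCNNTTTC. The matches start 222 bases (Stat2), 155 bases (Slfn5) and 48 bases (Slfn8) before the start site of the window shown. A match is a description of these letters and no evidence of binding.

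The libraries differed in depth and in free RNA. The barcode lists started at 150 UMIs in the allogeneic and 3447 UMIs in the syngeneic library, and 1071 allogeneic but 0 syngeneic barcodes had under 200 genes. The libraries shared 66 barcodes, 26 of them among kept cells and 0 among members. One allogeneic member held 33536 UMIs, 12.4% of all member UMIs, and 5693 of the 5857 S100a8 UMIs of the allogeneic members, with 1 Cd4 UMI. Members with at least 20 UMIs of neutrophil and macrophage genes were therefore left out of values per gene, a choice made after seeing the data, which left 78 allogeneic and 695 syngeneic members with 236068 and 3300175 UMIs. Their median depth was 3192.5 and 4379 UMIs, with ranges of 254 to 5337 and 3449 to 13645. No doublet caller was applied, and the rule itself takes out cells with Cd8 or Cd79a UMIs.

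Interferon-low cells were a smaller part of the CD4 compartment in the allogeneic library. CD4 T cells that passed every other condition made up 12.2% of allogeneic kept cells (256 of 2106) and 11.96% of syngeneic kept cells (952 of 7957). The interferon limit then passed 30.9% of them in the allogeneic library (95% exact binomial interval 25.3 to 36.9) and 73.5% in the syngeneic library (70.6 to 76.3). Members were thus 3.75% of allogeneic cells (2.98 to 4.65) and 8.80% of syngeneic cells (8.18 to 9.44). The rule uses these counts, so the gap describes the libraries and is no separate support for a difference.

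Depth bears on a limit set in UMIs, since a shallower cell passes more easily. With each cell thinned to 1000 UMIs before the rule was applied, 64.1% of allogeneic (54.0 to 73.3) and 93.9% of syngeneic CD4 T cells (91.3 to 95.9) passed the interferon limit, and members were 3.66% of 1804 and 5.58% of 7957 cells. Among cells at least as deep as the shallowest syngeneic barcode, the allogeneic pass rate was 27.0%. The allogeneic rate lay below the syngeneic rate in each of these counts. Allogeneic barcodes under 200 genes, which hold free RNA or remnants of cells, carried the 5 genes too. Haemoglobin made up 64.4% of the UMIs of these barcodes, so their levels are given here in CPM (counts scaled to a common total of UMIs) over UMIs without haemoglobin, and on that scale the 5 genes summed to 1333 CPM. CD4 T cells above the limit had 1734 CPM and members 199.9 CPM on the same scale. Among B cells, which can express these genes themselves, the sum over all UMIs was 1303 CPM (allogeneic) and 139 CPM (syngeneic). In syngeneic CD4 T cells above the limit it was 787 CPM. The part of free RNA in the pass rate was not tested.

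The distribution of the interferon sum separated the libraries mostly at its ends. Without the cells rich in myeloid RNA, 31 allogeneic CD4 T cells of 252 had a sum of 0, 47 a sum of 1, 32 a sum of 2, 26 a sum of 3 and 116 a sum of 4 or more. The corresponding syngeneic numbers were 424, 271, 111, 54 and 85 of 945. Cells just inside the limit (sum 1) were 18.7% of allogeneic and 28.7% of syngeneic CD4 T cells, and cells just outside it (sum 2) were 12.7% and 11.7%. The largest single class was a sum of 4 or more in the allogeneic library (46.0%) and a sum of 0 in the syngeneic library (44.9%).

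**Figure D1:**
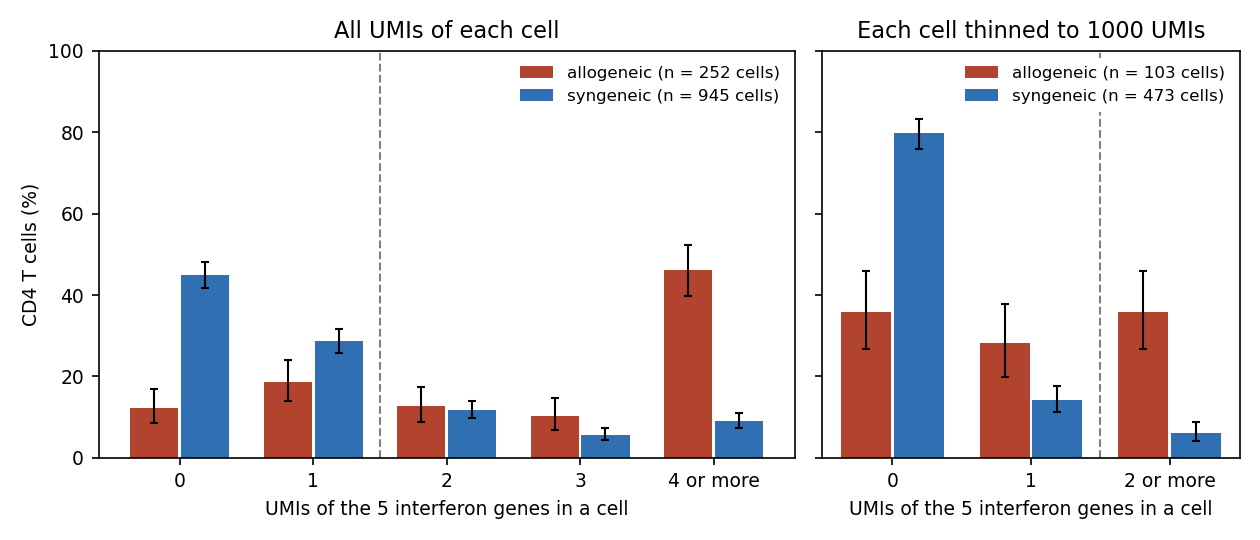
Share of CD4 T cells (%, y axis) by the number of UMIs of the 5 interferon genes in a cell (x axis), for the allogeneic (red) and syngeneic (blue) library, with all UMIs (left) and after thinning to 1000 UMIs (right). Bars are shares, black lines are 95% exact binomial intervals and the dashed line is the limit of the rule: 46.0% of allogeneic cells have 4 or more UMIs and 44.9% of syngeneic cells have 0.

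Type I interferon genes that the rule did not use tracked the sum in both libraries. Their summed level in allogeneic CD4 T cells was 5011 CPM at a sum of 0, 6128 at 1, 6898 at 2, 8010 at 3 and 12068 at 4 or more. In syngeneic CD4 T cells it was 4338, 4746, 5397, 6253 and 10351 CPM. At a sum of 0 the exact Poisson interval was 4548 to 5509 CPM in the allogeneic cells and 4247 to 4431 in the syngeneic cells. Ly6a, a gene of the same list, made up 421 CPM of the allogeneic and 33.2 CPM of the syngeneic level. The recipients of both groups were Balb/c, and the cause of the Ly6a gap was not tested. Without Ly6a the levels at a sum of 0 were 4591 (4148 to 5068) and 4305 CPM (4214 to 4397), with overlapping intervals, and at a sum of 1 they were 5716 (5340 to 6111) and 4713 CPM (4596 to 4832). No step separated cells just inside the limit from those just outside it.

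**Figure D2:**
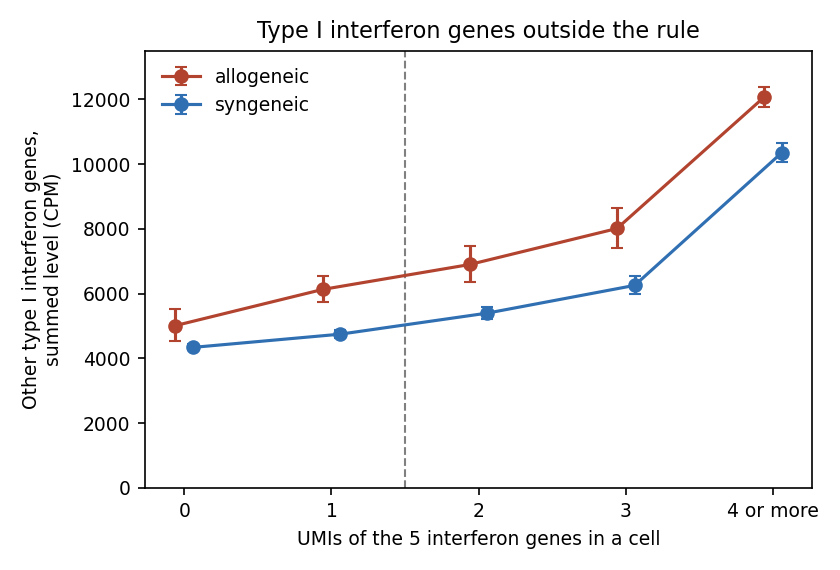
Summed level in CPM (y axis) of the type I interferon genes outside the rule, by the UMIs of the 5 rule genes in a cell (x axis), in allogeneic (red) and syngeneic (blue) CD4 T cells. Points are sums over the cells of a class with 95% exact Poisson intervals, and the dashed line is the limit of the rule: with Ly6a included, the allogeneic points lie above the syngeneic points in every class, from 5011 against 4338 CPM at 0 to 12068 against 10351 CPM at 4 or more.

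The label was checked on the 4 marker genes. Cd4 is part of the rule and stood at 428 CPM in allogeneic and 319 CPM in syngeneic members. Igfbp4, which encodes an insulin-like growth factor binding protein found in naive T cells, was at 703 and 637 CPM, and Lef1 at 602 and 565 CPM. Pdlim4, a LIM-domain adaptor of actin, was at 80.5 and 135 CPM. Igfbp4 and Lef1 thus stood within their counting error of each other in the libraries, with a log2 ratio of allogeneic over syngeneic of 0.14 (95% interval -0.09 to 0.37) and 0.09 (-0.16 to 0.34), and Pdlim4 was lower in the allogeneic members at -0.75 (-1.49 to -0.09). In B cells Igfbp4 was at 14.2 and 22.6 CPM and Lef1 at 12.4 and 27.9 CPM, far below the members.

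The markers fitted CD4 T cells and did not separate interferon-low from interferon-high ones. Within a library, CD4 T cells above the interferon limit had nearly the same marker levels. In the allogeneic library the level above the limit over that in members was 0.04 (log2; -0.22 to 0.30) for Igfbp4 and -0.13 (-0.41 to 0.17) for Lef1. In the syngeneic library it was -0.17 (-0.29 to -0.05) for Igfbp4 and -0.07 (-0.19 to 0.06) for Lef1. Type I genes outside the rule lay apart between the classes: 41 of 42 measured ones were higher above the limit in the allogeneic library, with a median log2 ratio of 1.11, and 36 of 36 in the syngeneic library, with a median of 0.75. Over all measured genes the medians were -0.06 and 0.00. In the syngeneic library other genes were also higher above the limit: 18 of 20 measured memory and effector genes, 3 of them at least 2-fold, with Ccl5 at 546 CPM against 92.1 CPM in members (2.57, 2.37 to 2.77). Of all 4887 measured genes in that library, 2485 were higher above the limit and 52 at least 2-fold. There Tyrobp, an adaptor of natural killer and myeloid cells, was apart by 1.90 and Cd74, the MHC class II invariant chain, by 1.09. Haemoglobin summed higher above the limit in both libraries, mainly through 1 cell in each. That cell held 8329 of 10588 haemoglobin UMIs above the limit in the allogeneic library and 5682 of 5748 in the syngeneic library. The division followed the rule genes, so these medians describe it and do not test it.

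Members thinned to 1000 UMIs showed a mostly naive-like population in both libraries. Of 69 allogeneic and 695 syngeneic members with that depth, 49.3% (37.0 to 61.6) and 43.3% (39.6 to 47.1) had an Igfbp4 UMI, and 55.1% and 43.7% a Lef1 UMI. In B cells thinned alike, with a median depth before thinning of 2256 and 4154 UMIs, at most 1.42% had Igfbp4 and at most 3.30% had Lef1. Without thinning, the members' shares were 69.2% and 79.1% for Igfbp4. Klf2, a transcription factor that keeps T cells quiescent and recirculating, was seen in 56.5% and 58.1% of thinned members. Cd44, raised on memory cells, was seen in 2.90% and 2.3%.

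After thinning, UMIs of effector genes were seen in a minority of members. By the summed UMIs of S100a4, Lgals1, Itgb1, Cxcr3, Ccl5 and Anxa2, 85.5% of allogeneic members (59 of 69) had 0, 7 had 1 and 3 had 2 or more. In the syngeneic library 72.8% (506 of 695) had 0, 132 had 1 and 57 (8.20%) had 2 or more. Along these classes in the syngeneic library Igfbp4 went from 715 to 614 to 246 CPM, while S100a6, a calcium-binding protein of memory cells, went from 21.7 to 30.3 to 1175 CPM. The 3 allogeneic cells at the upper end are too few for levels. These shares belong to the thinned depth: without thinning 10.3% (allogeneic) and 49.2% (syngeneic) had an Lgals1 UMI, with Ccl5 in 7.69% and 19.9% and Itgb1 in 10.3% and 13.5%.

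Tbx21 and Cxcr3, a transcription factor and a chemokine receptor of Th1 cells, had 0 UMIs in the 78 allogeneic members. This allows, at 3 counts of 78, a share of cells with a UMI of up to 3.85%, and sets no limit on cells that express the gene. Both were rare in the syngeneic library too, with Tbx21 in 0% and Cxcr3 in 0.719% of thinned members. Of the 5 measured genes of the Th1 list 4 were above a ratio of 1, 0 at least 2-fold higher and 1 at least 2-fold lower. The list median was a log2 ratio of 0.54, against 0.15 for all measured genes. It covers only the 5 measured of 10 listed genes, and 4 of the 10 had 0 UMIs in allogeneic members. The median therefore cannot decide whether Th1 genes as a whole were higher or lower. The transcription factor of Th2 cells, Gata3, had a UMI in 4.35% (allogeneic) and 4.46% (syngeneic) of thinned members, at a level of 42.4 and 44.5 CPM.

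**Figure D3:**
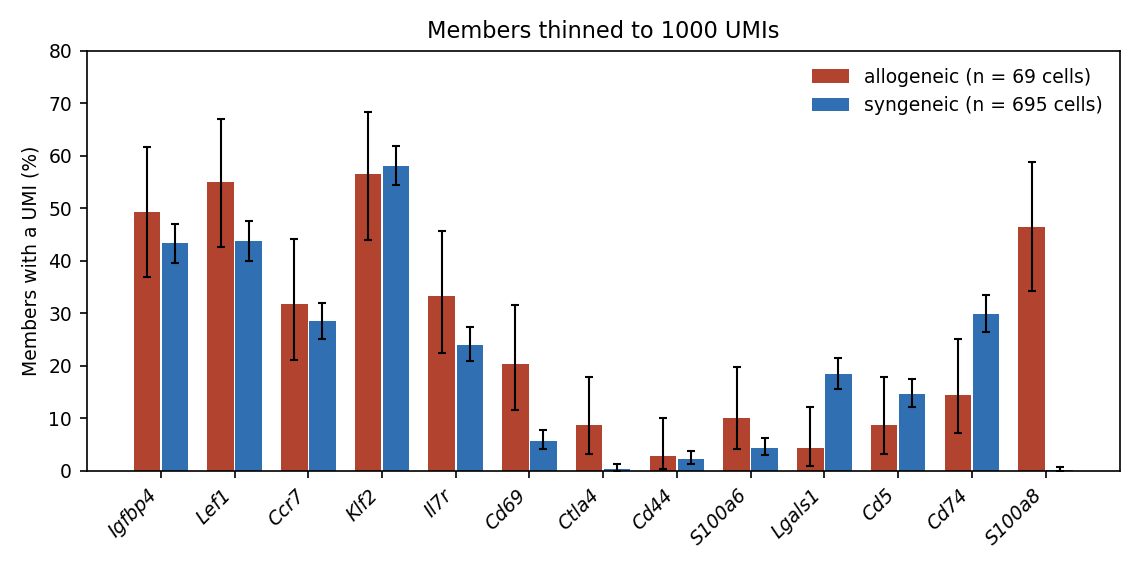
Share of members with at least 1 UMI (%, y axis) of each gene (x axis) after thinning each cell to 1000 UMIs, in 69 allogeneic (red) and 695 syngeneic (blue) members. Bars are shares with 95% exact binomial intervals: Igfbp4, Lef1 and Klf2 have overlapping intervals, Cd69 and Ctla4 are higher in the allogeneic and Lgals1 in the syngeneic library, and S100a8 is seen in 46.4% against 0.144%.

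Levels were then compared gene by gene over 5153 genes with a mean of at least 20 CPM over both libraries. A gene was counted as higher or lower when it was at least 2-fold apart with a counting interval that excluded equal levels. By this rule 473 genes, 9.18% of those measured, were higher in allogeneic members and 146, or 2.83%, were lower, and the median log2 ratio of all measured genes was 0.15, with 59.0% of them above a ratio of 1. Over all 79 and 700 members, as the comparison had been laid out, 504 (9.81%) and 196 (3.82%) of 5137 genes were counted. A low gene may pass the filter through 1 library alone, so these counts are no count of regulated genes.

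Genes of other cell types headed the ratios. The neutrophil genes S100a8 and S100a9 stood at 695 and 356 CPM in allogeneic and 3.03 and 3.94 CPM in syngeneic members, and the acute-phase gene Saa3 at 84.7 CPM (20 UMIs) against 0 UMIs. Set against a floor of 3 UMIs over the syngeneic members, Saa3 was 93.2-fold higher, a point value that leaves out counting error. Allogeneic B cells had 651 CPM of S100a8, close to the members' level, and allogeneic barcodes under 200 genes had 5590 CPM over UMIs without haemoglobin. The part of RNA from other cells in the ratios was not tested. The 9 genes of the neutrophil list were summed at 1351 CPM in allogeneic members, with a UMI in 97.4% of cells, and at 23.03 CPM in syngeneic members, with a UMI in 8.20%. Haemoglobin made up 0.407% and 0.00336% of member UMIs. Macrophage markers were at 33.9 and 16.7 CPM, and all 5 dendritic cell markers were at 0 UMIs in allogeneic members and at 14.5 CPM in syngeneic members. B cell genes went the other way, at 288 CPM in allogeneic and 689 CPM in syngeneic members, with Cd74 in 14.5% and 29.9% of thinned members. Of 451 higher genes outside haemoglobin, ribosomal, mitochondrial and receptor segment genes, 52 stood at least 2 times above both allogeneic B cells and barcodes under 200 genes, in CPM without haemoglobin, with a UMI in at least 5 members, and of 146 lower genes 20 stood at least 2 times above syngeneic B cells. These criteria were added after seeing the data.

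Genes of the glucocorticoid response, which stress hormones induce in lymphocytes through the glucocorticoid receptor, had the highest median of the lists outside haemoglobin and neutrophil genes. Of 12 genes 10 were measured, 8 were at least 2-fold higher and 0 lower, beside 9.18% and 2.83% of all measured genes. Their median log2 ratio was 2.43 against 0.15 for all measured genes. Txnip, a thioredoxin inhibitor that also restrains glucose uptake, was at 1190 CPM in allogeneic and 216 CPM in syngeneic members (log2 2.46, 2.26 to 2.66). Tsc22d3, which encodes the glucocorticoid-induced leucine zipper, was at 762 and 145 CPM (2.40, 2.14 to 2.65). Ddit4, an inhibitor of mTORC1, was at 453 and 102 CPM (2.15), and Fkbp5, a co-chaperone of the receptor, at 140 and 15.2 CPM (3.21). The list was as far apart in CD4 T cells above the interferon limit, with a median of 2.27 and was at 1.71 in CD8 T cells under the limit. Within each library it hardly followed interferon: the median of CD4 T cells above the limit over members was 0.00 (allogeneic) and -0.08 (syngeneic). B cells differed between the libraries as well, with the list summed at 3042 CPM (allogeneic) and 436 CPM (syngeneic), against 3571 and 916 CPM in members. Over UMIs without haemoglobin, allogeneic barcodes under 200 genes had Tsc22d3 at 649 CPM and Txnip at 926 CPM, beside 766 and 1195 CPM in members, and Fkbp5 at 185 CPM beside 140 CPM. The part of free RNA in these ratios was not tested.

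The cytokine receptors and the NF-κB pathway lay on the same side. Of 22 measured genes of the cytokine receptor list, 19 were above a ratio of 1, 5 at least 2-fold, with a median log2 ratio of 0.63, where 59.0% of all measured genes were above 1 and 9.18% at least 2-fold higher. Il7r, the receptor for the survival cytokine of naive T cells, was at 674 CPM and 289 CPM (1.22, 0.97 to 1.46; 0.69 with selection after thinning). In B cells Il7r was at 170 and 15.4 CPM, seen in 15.8% and 1.18% of them after thinning. Ifngr1, a chain of the interferon gamma receptor, was at 369 and 108 CPM (1.76). Socs3, a feedback inhibitor of cytokine signalling, was at 267 and 48.8 CPM (2.45). Of the 15 measured NF-κB genes 10 were above a ratio of 1 and 5 at least 2-fold higher, and Nfkbia, the inhibitor that NF-κB induces against itself, was at 940 and 267 CPM (1.82, 1.60 to 2.03). Of 14 measured immediate early genes 12 were above a ratio of 1 and 5 were at least 2-fold higher, among them Zfp36l2, which destabilises messenger RNA, at 631 and 106 CPM (2.57), and Junb, an AP-1 subunit, at 432 and 151 CPM (1.52). Over UMIs without haemoglobin, Zfp36l2 was at 634 CPM in allogeneic members, 755 in allogeneic B cells and 489 in allogeneic barcodes under 200 genes. In the same order Junb was at 434, 325 and 407 CPM and Nfkbia at 944, 499 and 618 CPM. Ifngr1 was at 370, 98.7 and 268 CPM and Socs3 at 268, 89.6 and 175 CPM. The part of free RNA in these ratios was not tested. With each cell thinned before selection, the NF-κB median was 0.17 and that of cytokine receptors 0.39, and among deep cells alone the latter was 0.08.

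**Figure D4:**
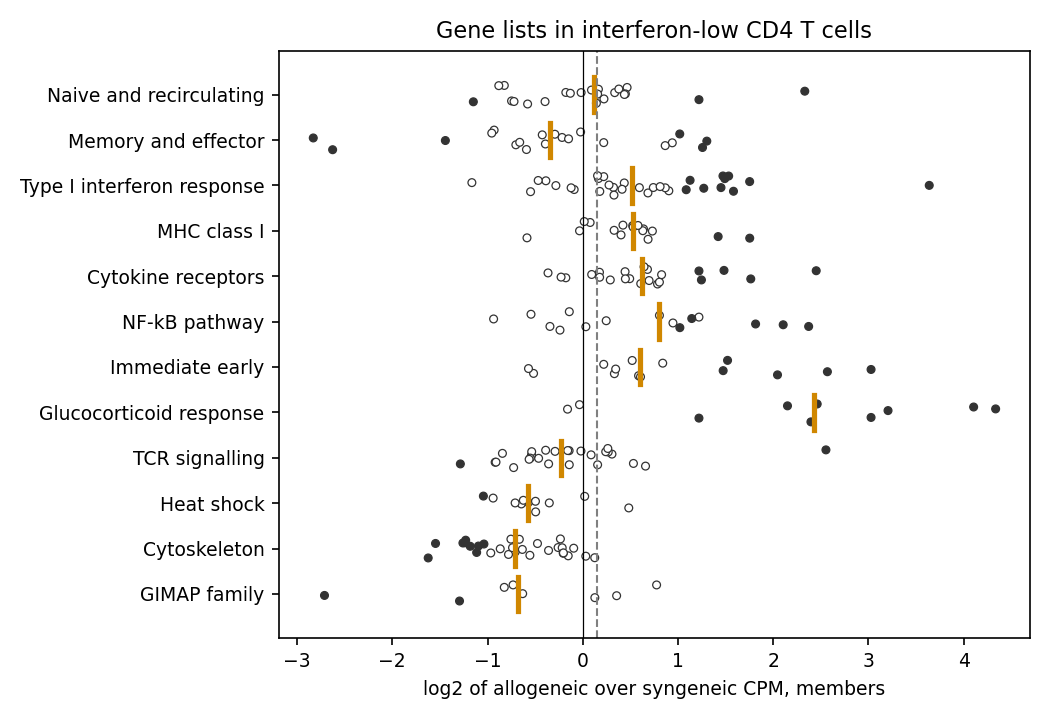
Log2 ratio of allogeneic over syngeneic CPM in members (x axis) for each measured gene of 12 lists (rows). Circles are genes, filled where at least 2-fold apart with an interval that excludes equal levels, orange bars are list medians and the dashed line is the median of all measured genes, 0.15: the glucocorticoid median is 2.43 and the cytoskeleton median -0.71.

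Type I interferon genes outside the rule lay mostly above equal levels in allogeneic members, with both sets held to the same low count of the rule genes. Of 62 genes listed, 32 were measured, 25 were above a ratio of 1, 10 at least 2-fold higher and 0 at least 2-fold lower, with a median log2 ratio of 0.52, beside 59.0%, 9.18% and 2.83% of all measured genes. The most abundant ones were close: Ifi27l2a was at 847 CPM and 902 CPM (-0.09, -0.30 to 0.12), Slfn2 at 606 and 544 CPM and Ifi203 at 504 and 450 CPM. Parp14, an interferon-induced ADP-ribosyltransferase, was at 114 and 33.9 CPM (1.75), and the genes whose promoters are shown above were at 38.1 and 13.9 CPM (Stat2, 1.45, or -0.06 with selection after thinning), 63.5 and 29.1 CPM (Slfn5, 1.13) and 123 and 50.9 CPM (Slfn8, 1.27). Ly6a, the Sca-1 antigen, was at 415 and 33.3 CPM, and at 834 CPM over UMIs without haemoglobin in allogeneic barcodes under 200 genes. Its level on T cells is known to differ between C57BL/6 and BALB/c mice, and the recipients of both groups were Balb/c. The cause of this gap was not tested. The rule genes themselves stood at 199 and 82.1 CPM in members, and the median of the list was 0.83 in CD4 T cells above the limit and 0.63 in CD8 T cells under it. With a sum of 0 required in place of at most 1, the median in members was 0.33. B cells, which were not held to the interferon limit, had the list summed at 10053 CPM (allogeneic) and 4076 CPM (syngeneic). In members the sums were 5723 and 4500 CPM.

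MHC class I genes, which carry peptides to CD8 T cells and are induced by interferons, were above a ratio of 1 for 14 of 16 measured members, 2 at least 2-fold, with a median log2 ratio of 0.53, beside 59.0% and 9.18% of all measured genes. H2-Q4 was at 1012 CPM in allogeneic and 378 CPM in syngeneic members (1.42, 1.22 to 1.62). H2-D1 was at 7909 and 5498 CPM (0.52) and H2-K1 at 2376 and 1527 CPM (0.64), while B2m, their shared light chain, was at 4304 and 4079 CPM (0.08, -0.02 to 0.17). In B cells the list summed to 14063 CPM (allogeneic) and 9988 CPM (syngeneic), against 18329 and 13525 CPM in members. Over UMIs without haemoglobin, H2-D1 was at 7941 CPM in allogeneic members and 6583 CPM in allogeneic barcodes under 200 genes. In the same order H2-Q4 was at 1017 and 911 CPM and H2-K1 at 2386 and 1678 CPM. The part of free RNA in these ratios was not tested. Counts for H2 genes are uncertain, because near-identical family members and the strains' alleles share reads.

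Genes of the naive list were as far above as below equal levels. Of 22 measured members 12 were above a ratio of 1, 2 at least 2-fold higher and 1 at least 2-fold lower, beside 59.0%, 9.18% and 2.83% of all measured genes. Their median log2 ratio was 0.12 against 0.15 for all measured genes, and the sign of the list median differed between processing choices. Ccr7, the chemokine receptor of lymph node entry, was at 483 and 350 CPM (0.47), Klf2 at 1093 and 937 CPM (0.22) and Tcf7, a partner of Lef1, at 326 and 258 CPM (0.34). Ms4a4b and Ms4a6b, membrane proteins of resting T cells, were lower at -0.72 and -0.88. Pik3ip1, which restrains PI3 kinase and is high in resting T cells, was at 894 and 178 CPM (2.33).

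Memory and effector genes included some of the largest deficits, on few allogeneic UMIs. The list median was -0.34 over 20 measured genes, and its sign changed under one alternative. Of these genes 3 were at least 2-fold higher and 3 lower, beside 9.18% and 2.83% of all measured genes. Lgals1, the galectin of activated and memory T cells, was at 42.4 CPM (10 UMIs) in allogeneic and 301 CPM in syngeneic members (-2.83, -3.89 to -1.94), and was seen in 4.35% (0.906 to 12.2) against 18.4% (15.6 to 21.5) of thinned members. The gap was not particular to members: in B cells Lgals1 was at 14.2 CPM (allogeneic) and 92.8 CPM (syngeneic). Its log2 ratio was -2.61 in CD4 T cells above the interferon limit and -2.58 in CD8 T cells under it. S100a4 had 3 UMIs in allogeneic members, 12.7 CPM, against 78.5 CPM (-2.63, -4.91 to -1.06), and its log2 ratio was -0.29 when each cell was given equal weight. Vim, Emp3, Crip1 and S100a10, cytoskeletal and membrane genes of memory cells, lay between -0.43 and -0.93. S100a6 went the other way, with a UMI in 20.5% of allogeneic and 8.92% of syngeneic members. After thinning its shares were 10.1% (4.18 to 19.8) and 4.46% (3.05 to 6.27), and in thinned B cells they were 6.98% and 3.54%. In CD4 T cells above the limit the list median was -0.996 and in CD8 T cells under it -0.69. The chemokine gene Ccl5 was at 33.9 and 92.1 CPM in members (-1.44, or -0.31 with equal weight per cell), with 360 CPM over UMIs without haemoglobin in allogeneic barcodes under 200 genes.

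Activation and checkpoint genes split. Cd69, an early activation antigen that also holds T cells in the lymph node, was at 292 CPM in allogeneic and 73.9 CPM in syngeneic members (1.98, 1.58 to 2.37), and was seen in 20.3% (11.6 to 31.7) against 5.76% (4.14 to 7.76) of thinned members. In thinned B cells the share was 11.2% and 3.30%. Cells selected after thinning gave a Cd69 log2 ratio of 0.62, and the 15 allogeneic members with at least 2 Cd4 UMIs gave 0.30. Cd40lg, the helper signal to B cells that T cell receptor stimulation induces, was at 33.9 and 69.4 CPM (-1.03, -2.26 to -0.03), with 0 UMIs in B cells, and its direction turned with selection after thinning (0.48). Cd5, which dampens receptor signalling and tracks its strength, was at 59.3 and 145 CPM (-1.28, -2.17 to -0.52), and at -0.93 among members with at least 2 Cd4 UMIs. The checkpoint ligand Vsir was at 50.8 and 110 CPM (-1.11), and at -0.07 with all members included. Cd200 was at 97.4 and 28.5 CPM (1.77), and its direction turned among the 27 allogeneic members that were as deep as the syngeneic ones (-1.65).

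Ctla4, the inhibitory receptor of activated and regulatory T cells, was at 119 CPM in allogeneic and 5.15 CPM in syngeneic members (4.53, 3.61 to 5.49). A UMI was found in 14 of 78 members of the allogeneic library and 13 of 695 of the syngeneic library, in 8.70% (3.26 to 18.0) against 0.432% (0.0891 to 1.26) after thinning, and in 0.465% and 0% of thinned B cells. Its ratio was 3.14 among deep cells and 2.33 with selection after thinning. The Ctla4-positive members had other genes of regulatory T cells as well, although every member lacked Foxp3 UMIs. In the allogeneic library 13 of 14 had a UMI of Ikzf2, Il2ra, Tnfrsf18, Tnfrsf4 or Izumo1r (92.9%, 66.1 to 99.8), against 36 of 64 Ctla4-negative members (56.2%, 43.3 to 68.6) at a similar median depth of 3265 and 3166 UMIs. In the syngeneic library it was 13 of 13 against 387 of 682. Igfbp4 was at 139 CPM in Ctla4-positive and 829 CPM in Ctla4-negative allogeneic members, and at 146 and 647 CPM in syngeneic members. Lef1 differed less in the allogeneic library, at 511 and 622 CPM, than in the syngeneic library, at 161 and 573 CPM. Ikzf2, a transcription factor of regulatory T cells, had a UMI in 2 of 14 allogeneic and 8 of 13 syngeneic Ctla4-positive members. These Ctla4 groups were set after seeing the data.

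Of the 13 measured genes of cell death and survival 6 were above a ratio of 1, 2 of them at least 2-fold, 0 were at least 2-fold lower and the median log2 ratio was -0.06. Over all measured genes 59.0% were above a ratio of 1, 9.18% at least 2-fold higher and 2.83% lower, with a median of 0.15. Bbc3, which encodes the pro-apoptotic protein PUMA, was at 301 CPM in allogeneic and 21.5 CPM in syngeneic members (3.81, 3.31 to 4.30), with a UMI in 46 of 78 and 60 of 695 cells. Bcl2l11, which encodes the pro-apoptotic BIM, was at 93.2 and 14.2 CPM (2.71, or 0.58 with selection after thinning), and Bcl2, their anti-apoptotic counterpart, at 962 and 517 CPM (0.90, 0.69 to 1.10). Bax at 144 and 152 CPM and Casp8 at 123 and 113 CPM had intervals that included equal levels. Over UMIs without haemoglobin, Bbc3 was at 216 CPM in allogeneic barcodes under 200 genes and 25.6 CPM in allogeneic B cells, beside 302 CPM in members. Its ratio was 3.28 in CD4 T cells above the interferon limit and 2.55 in CD8 T cells under it.

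Neb, which encodes the muscle filament protein nebulin, was at 144 CPM in allogeneic and 3.33 CPM in syngeneic members (5.43, 4.42 to 6.56). It was spread over cells, with a UMI in 29 of 78 allogeneic and 11 of 695 syngeneic members and at most 2 UMIs in any cell. Its ratio was 4.71 in CD4 T cells above the limit and 5.53 in CD8 T cells under it. Over UMIs without haemoglobin, the level was 5.48 CPM in allogeneic B cells and 113 CPM in allogeneic barcodes under 200 genes, beside 145 CPM in members.

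Cytoskeletal genes were lower in allogeneic members. Of 29 measured genes 27 were below a ratio of 1 and 9 at least 2-fold, with a median log2 ratio of -0.71. Over all 5153 measured genes 2113 were below a ratio of 1 and 2.83% at least 2-fold lower, with a median of 0.15. Tmsb4x, which binds monomeric actin and is among the most abundant messages of lymphocytes, was at 5363 CPM and 15659 CPM (-1.55, -1.63 to -1.47). Pfn1, which feeds actin monomers to filaments, was at 1622 and 3825 CPM (-1.24) and Actg1, the cytoplasmic gamma actin, at 559 and 1722 CPM (-1.62). Actb, at 4079 and 4881 CPM (-0.26), and Tmsb10, at 5867 and 6814 CPM (-0.22), differed less. The median was -0.60 in CD4 T cells above the limit and -0.80 in CD8 T cells under it. With all 79 and 700 members, the median was -0.31. B cells differed between the libraries too, with the list summed at 18776 CPM (allogeneic) and 41151 CPM (syngeneic). In members the sums were 25832 and 45590 CPM.

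The GIMAP family, small GTPases that support T cell survival, was split. Its 8 genes had a median of -0.68, with 2 at least 2-fold lower, beside 0.15 and 2.83% for all measured genes. The median was -0.09 with selection after thinning, -0.03 among members with at least 2 Cd4 UMIs and -0.30 without cells with UMIs of other lineages. Gimap7 was at 21.2 CPM (5 UMIs) and 139 CPM (-2.71, -4.34 to -1.48) and Gimap4 at 212 and 519 CPM (-1.29, or -0.76 among members with at least 2 Cd4 UMIs), while Gimap6 was at 407 and 372 CPM (0.13). Thinned selection brought Gimap7 to -1.0.

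**Figure D5:**
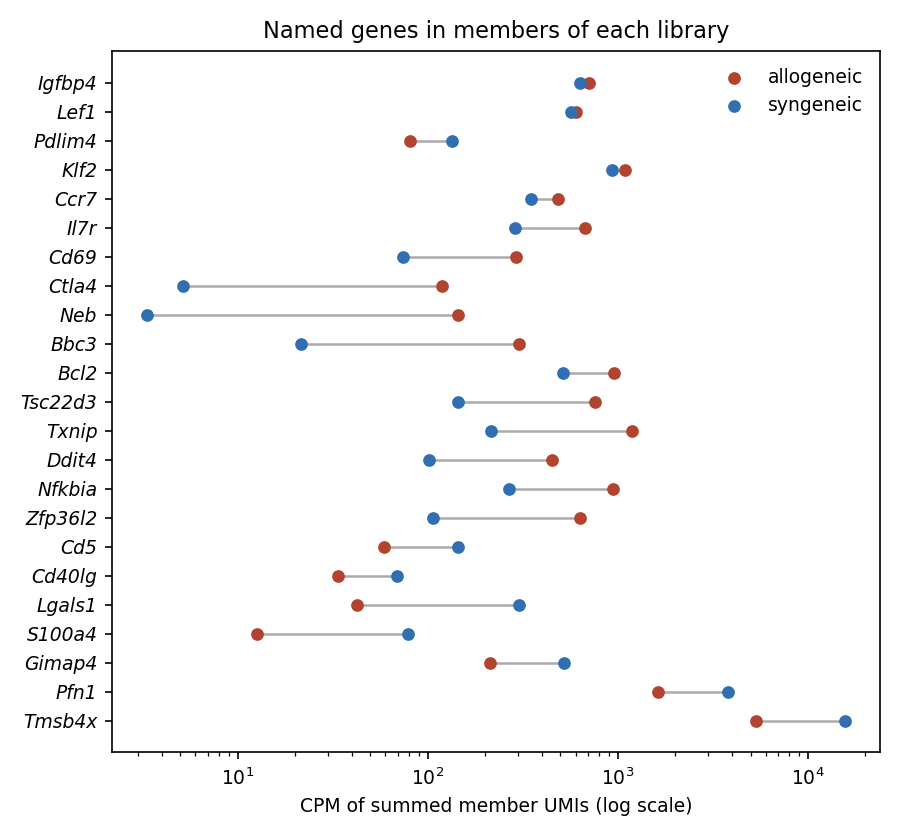
Level in CPM (x axis, log scale) of 23 named genes (rows) in the summed UMIs of allogeneic (red) and syngeneic (blue) members, with a grey line between them. Igfbp4 and Lef1 nearly coincide, Ctla4, Neb and Bbc3 have the widest gaps with the allogeneic library higher, and Lgals1, S100a4 and Tmsb4x are lower there.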

How the data were processed

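The deposited files hold raw UMI counts, not normalised, in 1 matrix per library. The labels' protocols name a Chromium 3′ kit for single cells, and Cell Ranger 2.2.0, STAR, Seurat 2.3.4 and mm10 are named in the submitters' processing notes. No source used here says how barcodes were selected. Counts of entries that share a symbol were summed (27998 entries, 27933 symbols), the cell filter and the rule were applied, and UMIs were summed over members per library and expressed as CPM of all member UMIs. Ratios have exact 95% intervals from the binomial share of the UMIs, shares have Clopper-Pearson intervals, and a gene at 0 UMIs was set to 3 UMIs. Thinning drew UMIs without replacement (seed 1). Python 3.11.15, numpy 2.4.6, scipy 1.17.1 and pandas 2.3.3 were used, and the ratio step was tested on simulated data.

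Comparison cells were CD4 T cells above the interferon limit (177 allogeneic, 252 syngeneic), CD8 T cells under it (83 and 1588) and B cells with at least 2 Cd79a UMIs and no Cd3 UMI (224 and 424). The members and lists were chosen with earlier results of these data known. Named genes were those with the 12 highest and the 12 lowest ratios among intervals without equal levels, up to 4 most abundant measured members per list, the markers and the rule genes, of which a part is described. Other genes were named after their values were seen. Alternatives varied depth, cell filter, rule limits, scaling, cell weighting and the filter on low values. T cell receptor and immunoglobulin constant genes and receptor segments were not analysed here, and some genes of the lists are not reported here.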

Additional observations from a re-analysis of the deposited data

How the results depend on the processing

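Members numbered 78 and 695 in the values per gene. They numbered 27 and 695 with cells at least as deep as the lowest syngeneic barcode, 15 and 258 with at least 2 Cd4 UMIs, and 66 and 444 with thinning before selection. The count of lower genes, 146, became 91, 54 and 68 under these settings, 69 with an interferon sum of 0 and 236 with median-of-ratios scaling, which shifts all log2 ratios by 0.15. The count of higher genes, 473, became 712 with equal weight per cell. With median-of-ratios scaling 377 genes were higher, so the split between higher and lower moved. The cytoskeleton median was -0.31 over all members. The naive median was -0.18 among deep cells, and the glucocorticoid median was 2.18 there, 2.17 after thinning, 2.15 over genes of at least 50 CPM and 2.75 over genes with at least 1 UMI. The share of cells that were members was 0.712% and 3.24% with 2 Cd4 UMIs, 1.47% and 5.33% with an interferon sum of 0, 11.97% and 11.88% with no interferon limit, 2.85% and 5.15% without cells with a UMI of B, natural killer, macrophage or plasma markers (added after seeing the data), and 5.58% in the syngeneic library after thinning. The percentage of CD4 T cells under the interferon limit was 64.1% and 93.9% after thinning, 12.3% and 44.9% with a sum of 0, and 22.7% in the allogeneic library with 2 Cd4 UMIs. The direction turned for Cd200 (-1.65, deep cells), Cd40lg (0.48), Gm13546 (0.43), Marcksl1 (0.88) and Stat2 (-0.057) after thinning, Rap1gds1 (0.15, equal weight per cell), Tmem176a (-2.02) and Tmem176b (-1.73) without the 5% of members with most UMIs, Tmem176b (-0.79) without cells with UMIs of other lineages, and the proliferation list (0.060, with 2 Cd4 UMIs). The cause of these changes in direction was not tested. Of the gene ratios, 1013 alternatives stayed within their counting interval and 104 moved beyond it. A gene seen in both libraries in the reported values but at 0 UMIs in 1 under an alternative has no value there, and genes at 0 in the reported values are set to 3 UMIs. The planned removal of members with any UMI of B, myeloid, neutrophil or natural killer markers left 1 allogeneic member and gives no value. No paired analysis was possible because each group has 1 library. Depth limits the allogeneic side: the floor of 3 UMIs is 12.7 CPM in its members and 0.909 CPM in the syngeneic members.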

Other observations

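Heat shock genes, the chaperones of protein folding, were mostly lower in allogeneic members. Of 11 measured genes 9 were below a ratio of 1, 1 of them at least 2-fold, with a median log2 ratio of -0.57. Over all 5153 measured genes 2113 were below a ratio of 1 and 2.83% at least 2-fold lower, with a median of 0.15. Hspa8, the constitutive HSP70, was at 792 CPM in allogeneic and 1177 CPM in syngeneic members (-0.57, -0.79 to -0.36), and Hspe1, the mitochondrial co-chaperonin, at 182 and 375 CPM (-1.04, or -0.77 with equal weight per cell). In B cells the heat shock genes summed to 2229 CPM (allogeneic) and 4370 CPM (syngeneic), against 2546 and 3724 CPM in members. The T cell receptor signalling list had a median of -0.22 over 26 genes. Lck, the kinase that starts the signal, was at 546 and 668 CPM (-0.29), Lat, its scaffold, at 746 and 603 CPM (0.31), and Ptpn22, a phosphatase that restrains the signal, at 267 and 45.5 CPM (2.55), though with 546 CPM in allogeneic B cells.

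Genes of the immunoproteasome, which interferon gamma induces to shape peptides for MHC class I, were not higher beside the MHC class I genes. Psmb8 was at 572 CPM in allogeneic and 769 CPM in syngeneic members (-0.43, -0.69 to -0.18) and Psme2 at 271 and 466 CPM (-0.78, -1.17 to -0.42). Haemoglobin followed the interferon class in 1 cell mainly: syngeneic CD4 T cells above the limit held 5748 haemoglobin UMIs, 5682 of them in 1 cell, and the 695 members held 111. In the allogeneic library 8329 of 10588 such UMIs above the limit were in 1 cell.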
